A study of Mus musculus with 3 samples.

Results

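The SR protein genes (Srsf) and the heterogeneous nuclear ribonucleoprotein genes (Hnrnp) encode a pair of well known families of RNA-binding splicing regulators. Members were the rows of the count tables whose gene identifier carried a protein-coding mouse symbol of the form Srsf plus a digit or a symbol starting with Hnrnp. The rule found 31 of 50600 annotated genes, 11 in the Srsf family and 20 in the Hnrnp family. The data are total RNA-seq of mouse primary cells of strain C57BL/6NJ labelled as T-helper 1, the CD4 helper subset known for interferon gamma. There was 1 group of 3 libraries, named as biological replicates 1, 2 and 3, from separate biosamples under a shared donor identifier. The headers of the count tables carry a time of 0 hours, and age and sex are not given. With 1 group there is no treatment or genotype contrast, so families and genes were compared within a library and libraries with each other. P-values over libraries measure only the spread between these 3 libraries, which may be technical.

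SR proteins carry RNA recognition motifs and a tail rich in arginine-serine dipeptides. They bind exonic enhancers, recruit the spliceosome and favour exon inclusion, and kinases of the Srpk and Clk families phosphorylate the tail. hnRNP proteins coat nascent transcripts through RNA recognition or KH domains and often glycine-rich tails, and many of them oppose SR proteins by silencing exons. In T cells, members of both families are known to act on the exons of Ptprc, the gene of the phosphatase CD45.

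Depth was 3647366, 4305077 and 2510319 counts in replicates 1, 2 and 3, and sets of 3 values below follow that order. Counts of pan T cell genes were high, as for Cd4 (1849, 2807 and 662 counts) and Lck (1889, 2836 and 686), whereas the Th1 genes Tbx21 and Ifng each had 1, 3 and 0 counts and Cxcr3 had 0 in all 3 libraries. Il12rb2, also a Th1 marker and one with exons that overlap the other strand, had 93, 89 and 102 counts. Of the markers of other cells, Ms4a1, Igkc, Klrb1c, Hba-a1 and Hbb-bs had 0 counts in each library, while the B cell gene Cd79a had 91, 138 and 108 and the myeloid gene Csf1r, which overlaps exons of the other strand, had 744, 638 and 699. The pan T cell genes thus met the T cell part of the label and do not bear on the subset. Tbx21, Ifng and Cxcr3, which define the subset, were at or near 0.

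One property of the counts bears on every level given here. The counting took the first read as being on the strand of the gene, and the orientation of the library kit is not given in the sources used here. If a kit gives the opposite orientation, a gene receives the fragments of its other strand. The mitochondrial gene mt-Nd6, the single protein gene of the light strand, held 3890, 3929 and 4054 counts per 100 bases, against 583.5, 953.2 and 147.3 for the heavy-strand gene mt-Co1. The 16.2% of genes whose exons overlap exons of the other strand held 63.1%, 53.8% and 76.5% of all counts. What part of the members' counts came from either strand of RNA was not tested, and a level below is the count under the deposited strand setting. In a bulk sample, less RNA per cell and fewer cells that express a gene cannot be told apart either.

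Sequences upstream of the start site are shown for 4 members: Srsf5 and Hnrnpa1 had the highest mean level of their family per summed exon length, and Srsf3 and Hnrnpu lay far apart in how their counts differed between libraries. Each line gives the 250 bases before the start site in RefSeq (GRCm38.p6), written 5' to 3' on the strand of the gene, with capitals for the ETS core CCGGAAG, the GC box GGGCGG and the CCAAT box CCAAT on either strand. Adjoining matches run together. In the deposited annotation (mm10) these genes span chr12:80945504-80950507 (Srsf5), chr17:29032673-29043366 (Srsf3), chr15:103240432-103244955 (Hnrnpa1) and chr1:178321108-178337797 (Hnrnpu).
Srsf5 chr12:80945249-80945498 (plus strand): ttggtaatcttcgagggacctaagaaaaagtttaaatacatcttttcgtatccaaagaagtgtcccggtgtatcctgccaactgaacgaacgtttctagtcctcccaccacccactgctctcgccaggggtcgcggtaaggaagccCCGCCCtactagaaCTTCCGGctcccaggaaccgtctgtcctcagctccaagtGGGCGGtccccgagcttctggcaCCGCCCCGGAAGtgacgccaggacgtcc
Srsf3 chr17:29032410-29032659 (plus strand): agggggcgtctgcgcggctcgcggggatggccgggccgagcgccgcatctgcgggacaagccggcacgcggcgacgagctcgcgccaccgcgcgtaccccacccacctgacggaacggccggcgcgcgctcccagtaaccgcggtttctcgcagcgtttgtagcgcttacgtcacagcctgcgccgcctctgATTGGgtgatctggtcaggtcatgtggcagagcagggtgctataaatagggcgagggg
Hnrnpa1 chr15:103240147-103240396 (plus strand): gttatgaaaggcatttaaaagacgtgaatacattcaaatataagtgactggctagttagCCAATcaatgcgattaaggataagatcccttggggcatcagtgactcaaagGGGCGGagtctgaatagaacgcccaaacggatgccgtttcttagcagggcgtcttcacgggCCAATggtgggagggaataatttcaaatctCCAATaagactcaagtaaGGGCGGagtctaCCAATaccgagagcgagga
Hnrnpu chr1:178337816-178338065 (minus strand): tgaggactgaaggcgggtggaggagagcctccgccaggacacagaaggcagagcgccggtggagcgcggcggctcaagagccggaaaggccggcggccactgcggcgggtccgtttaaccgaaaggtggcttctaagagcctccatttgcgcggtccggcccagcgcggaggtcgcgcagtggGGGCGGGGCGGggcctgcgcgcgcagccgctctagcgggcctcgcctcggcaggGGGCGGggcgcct
The Srsf5 sequence holds 2 ETS cores and 3 GC boxes and no CCAAT box, and the Hnrnpa1 sequence holds 4 CCAAT boxes and 2 GC boxes and no ETS core. Of these 3 motifs, Srsf3 has 1 CCAAT box and Hnrnpu 3 GC boxes.

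RefSeq promoters were matched for 29 of the 31 members, all except Hnrnpll and Hnrnpul2. Some matched start sites lay far from the 5' end of the deposited gene. The distance was 2349 bases for Hnrnpl, 1402 for Hnrnpm, 1226 for Hnrnpk, 442 for Hnrnpdl and 368 for Hnrnph3. It was 324 for Srsf10, 281 for Srsf12 and at most 35 for the others. The matched promoters held a median of 23 CpG dinucleotides (6 to 46), against 6 (0 to 56) over 32817 mouse promoters of the same length. The GC box was found in 10 of 11 Srsf and 13 of 18 Hnrnp promoters, and in 32.7% of all promoters. The CCAAT box was found in 3 of 11 Srsf and 12 of 18 Hnrnp promoters (33.8% of all), and the ETS core in 4 of 11 Srsf and 2 of 18 Hnrnp promoters (6.91% of all). The TATAAA motif was present in 3 members (12.4% of all promoters) and the E-box CACGTG in 2 (6.02% of all). Both strands were searched, and a match describes letters in the window and not a bound site.

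Nearly all members were counted at a substantial level in each library. At least 10 TPM (counts per summed exon length, scaled to a fixed total in each library, computed from the deposited counts) were reached in all 3 libraries by 27 of 31 members, 10 of 11 Srsf and 17 of 20 Hnrnp genes, against 16.5% of the 21764 protein-coding genes. The 4 below this level in at least 1 library were Srsf12, Hnrnph2, Hnrnpr and Hnrnpll. The members held 23593, 34911 and 10771 counts, or 0.647%, 0.811% and 0.429% of each library. The share was highest in replicate 2 and lowest in replicate 3. All genes with exon overlap had the reverse order, with 63.1%, 53.8% and 76.5% of the counts. The members' order is thus to be read beside the make-up of each library.

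The Srsf family summed to 812.4, 1152.2 and 418.75 TPM and the Hnrnp family to 1705, 2475.9 and 961.92 TPM. Both sums followed the same order of libraries, and their ratio was 2.10, 2.15 and 2.30 (mean 2.18 ± 0.103, SD, n = 3), with 20 genes in the larger family and 11 in the smaller. Per gene the families lay closer together. The median Srsf gene had 60.9, 84.1 and 39.6 TPM and the median Hnrnp gene 89.4, 125 and 41.5 TPM. The Hnrnp median minus the Srsf median, in log2(TPM + 0.1), was 0.55, 0.57 and 0.066 (mean 0.40 ± 0.29, SD, n = 3). The sign was the same in 3 of 3 libraries, and the exact two-sided sign-flip test gave p = 0.25, the smallest it can give with 3 libraries. The difference was thus not past a threshold of 0.05, which this design cannot reach.

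**Figure D1:**
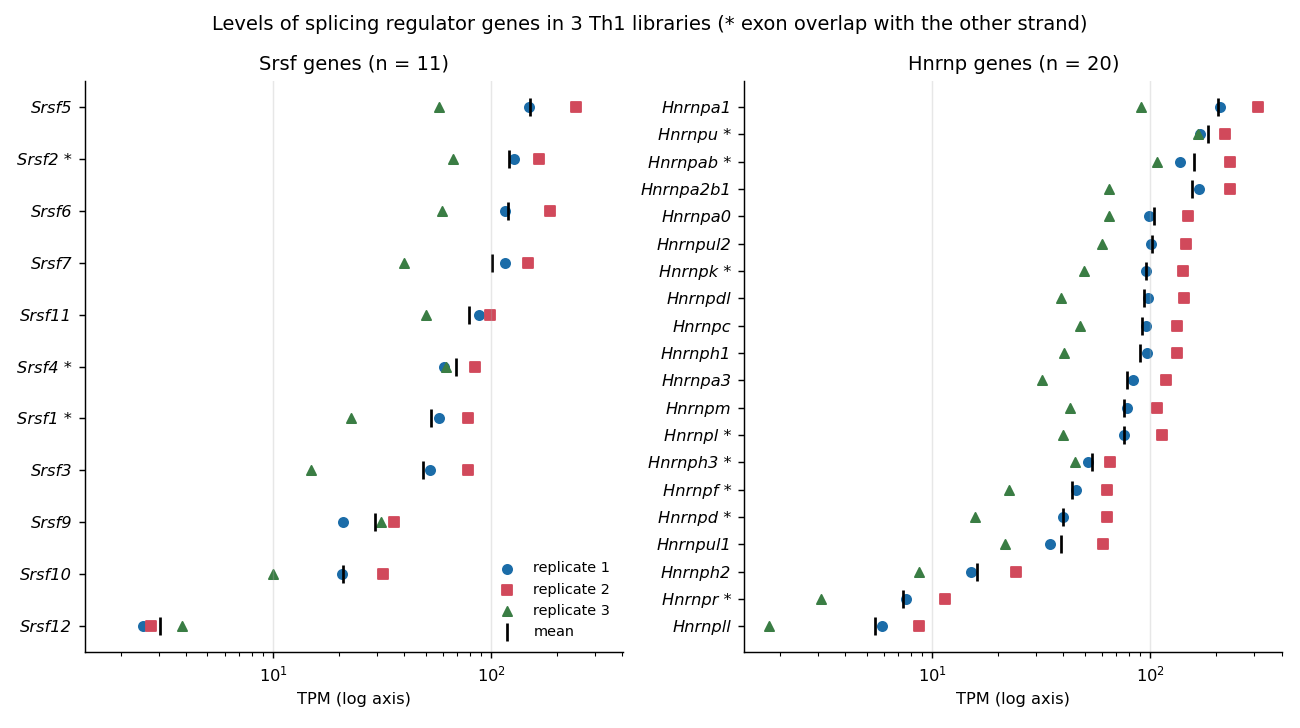
TPM of each Srsf and Hnrnp gene (log axis) in the 3 Th1 libraries, with 1 symbol per library and a bar at the mean. Genes are sorted by their mean, an asterisk marks exon overlap with a gene of the other strand, and in TPM, which follows the library total, replicate 3 is lowest for all genes but Srsf4, Srsf9 and Srsf12.

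Among SR proteins the levels per summed exon length were led by Srsf5, a factor with a pair of RNA recognition motifs, which had 150, 244 and 57.9 TPM (1124, 1905 and 345 counts). It ranked 1st of its family in replicates 1 and 2 and 4th in replicate 3. Srsf2, the nuclear speckle protein SC35, had 128, 166 and 66.7 TPM (712, 964 and 295 counts). Srsf6, a close relative of Srsf4 and Srsf5, had 115, 185 and 59.3 TPM (1043, 1746 and 426 counts). Srsf7, which carries a zinc knuckle and is an adaptor for mRNA export, had 116, 147 and 39.6 TPM (499, 658 and 135 counts). The ranges of these 4 genes over the libraries overlapped throughout, and their order changed from library to library, although Srsf5 and Srsf2 each exceeded Srsf7 in every library.

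A middle group followed. Srsf11, known to contact the large subunit of the U2 auxiliary factor, had 88.0, 99.0 and 50.3 TPM (1399, 1639 and 635 counts) and ranked 5th in each library. This place rests on the length: with the longest annotated transcript its mean was 188 TPM in place of 79.1, above Srsf2 (163) and Srsf5 (150). Srsf4 had 60.9, 84.1 and 62.2 TPM (408, 587 and 331 counts), and moved from rank 6 in replicates 1 and 2 to rank 2 in replicate 3. Srsf1, the founding SR protein and classic antagonist of Hnrnpa1, had 57.8, 77.9 and 22.7 TPM (621, 872 and 194 counts). Srsf3, the smallest SR protein, had 52.6, 77.9 and 14.9 TPM (506, 780 and 114 counts). Srsf1 and Srsf3 stood beside each other in all 3 libraries.

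The low end of the family was the same in each library apart from Srsf9. That gene, whose protein is a relative of Srsf1 with a short tail, had 20.9, 35.8 and 31.2 TPM (65, 116 and 77 counts). Srsf10, described as a repressor when dephosphorylated, had 20.6, 31.8 and 10.03 TPM (272, 437 and 105 counts). Srsf12, its relative, had 2.53, 2.76 and 3.83 TPM, from 15, 17 and 18 counts, and ranked last in every library. Within the family the highest gene exceeded the lowest by 59.1-fold, 88.5-fold and 17.4-fold.

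The Hnrnp genes with the highest mean TPM per summed exon length belonged to the A/B and U groups. Hnrnpa1, which binds exonic silencers, had 210, 312 and 90.7 TPM (758, 1172 and 260 counts). Hnrnpu, the nuclear scaffold attachment factor, had 169, 219 and 165 TPM (3681, 4980 and 2857 counts) and ranked 2nd, 4th and 1st. Hnrnpab had 137, 233 and 108 TPM (718, 1271 and 447 counts), and Hnrnpa2b1 had 167, 233 and 64.6 TPM (2067, 3005 and 636 counts). Which of them led depended on the library and on the length used: with the longest annotated transcript as length the mean was 109 TPM for Hnrnpa1, 243 for Hnrnpa2b1 and 245 for Hnrnpu, against 204, 155 and 184 with the summed exon length. With that length Hnrnpk (157 TPM), Hnrnpl (147) and Hnrnpdl (142) also had higher means than Hnrnpa1. For Hnrnpa1 that transcript, from GENCODE M21, has 3118 bases against 1918 in the deposited exons, so its length includes bases that were not counted. Hnrnpa0, an A/B protein encoded without introns, had 98.6, 149 and 64.7 TPM (497, 782 and 259 counts). Hnrnpul2, a relative of Hnrnpu, had 100.5, 145 and 60.0 TPM (1083, 1629 and 513 counts).

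The next 7 genes had means from 95.3 TPM (Hnrnpk, a KH domain protein that binds C-rich RNA) to 76.0 TPM (Hnrnpl, which binds CA repeats). They included Hnrnpdl (93.6), Hnrnpc, which binds uridine tracts (91.7), Hnrnph1, which binds G-tracts (89.8), Hnrnpa3 (77.8) and Hnrnpm (76.1), with SDs of 32.1 to 52.3 TPM over the 7. These SDs include the difference between libraries that the genes share. Hnrnph1 exceeded its neighbour Hnrnpa3 in each library (96.4, 133 and 40.2 against 83.4, 118 and 31.7 TPM), while the other neighbours among the 7 changed order between libraries. Hnrnph3, Hnrnpf, Hnrnpd and Hnrnpul1 had means of 54.0, 43.97, 39.7 and 39.0 TPM. Hnrnpd, also called AUF1, is known for binding AU-rich elements of unstable mRNAs. The lowest 3 were the same in all libraries: Hnrnph2 (15.1, 24.2 and 8.73 TPM), Hnrnpr (7.56, 11.4 and 3.10 TPM) and Hnrnpll (5.91, 8.74 and 1.78 TPM, from 130, 200 and 31 counts). Hnrnpll is the regulator known for silencing CD45 exons in activated T cells. The rows Hnrnpa1l2-ps and Hnrnpa1l2-ps2, which are processed pseudogenes and no members, had 0 counts.

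Closely related genes were compared as 16 pairs within each library, as log2 ratios of TPM + 0.1. The first named gene was higher in all 3 libraries in 7 pairs, the second in 5, and 4 pairs had no common direction. No pair could pass 0.05: the exact two-sided sign-flip test gave p = 0.25 where 3 of 3 libraries agreed in sign (adjusted p = 0.333 over the 16 pairs by Benjamini-Hochberg) and p = 0.5 otherwise.

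The largest separations were between a well counted gene and a low relative. Hnrnpl exceeded Hnrnpll by 3.65, 3.67 and 4.41 on the log2 scale (mean 3.91 ± 0.43, SD, n = 3), and the encoded proteins are 54.1% identical over the shorter one. Hnrnph1 exceeded the X-linked Hnrnph2 by 2.67, 2.45 and 2.19 (mean 2.44 ± 0.24), although these proteins are 93.3% identical. Srsf10 exceeded Srsf12 by 2.98, 3.48 and 1.37 (mean 2.61 ± 1.10). In each of these pairs the difference was larger than its spread between libraries, and that of Srsf10 and Srsf12 was the least steady.

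Within the A/B group, Hnrnpa1 exceeded Hnrnpa3 by 1.33, 1.397 and 1.51 (mean 1.41 ± 0.091). This order depended on the length, with a mean of 0.65 for the longest transcript and -0.077 with no length correction. Hnrnpa1 also exceeded Hnrnpa0 in all 3 libraries (mean of Hnrnpa0 minus Hnrnpa1 -0.88 ± 0.34). Hnrnpa2b1 minus Hnrnpa1 was -0.33, -0.42 and -0.49 per summed exon length, and this order turned around with the longest transcript as length (mean 1.14). For Hnrnpa1 the longest transcript includes bases that were not counted, which bears on each of its ratios with that length. Hnrnpab exceeded Hnrnpd (mean 2.14 ± 0.54), and Hnrnpd lay below Hnrnpdl (mean -1.26 ± 0.074). In the G-tract binding group, Hnrnph1 exceeded Hnrnpf by a mean of 0.99 ± 0.13, while Hnrnph1 and Hnrnph3 had no common direction (0.90, 1.02 and -0.16). In the U group, Hnrnpu exceeded Hnrnpul1 (mean 2.35 ± 0.54), and Hnrnpul1 lay below Hnrnpul2 (mean -1.42 ± 0.14, or -0.39 with the longest transcript as length).

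Of the other SR pairs, 1 had a common direction. Srsf3 lay below Srsf7 in all 3 libraries (mean -1.15 ± 0.24), an order that rests on the length correction since the log2 ratio of their CPM, with no length, averaged 0.0072. Srsf1 minus Srsf9 was 1.46, 1.12 and -0.45, Srsf4 minus Srsf6 was -0.92, -1.14 and 0.070, and Srsf5 minus Srsf6 was 0.38, 0.40 and -0.034. In each of these 3 pairs replicate 3 was the library with the other sign.

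**Figure D2:**
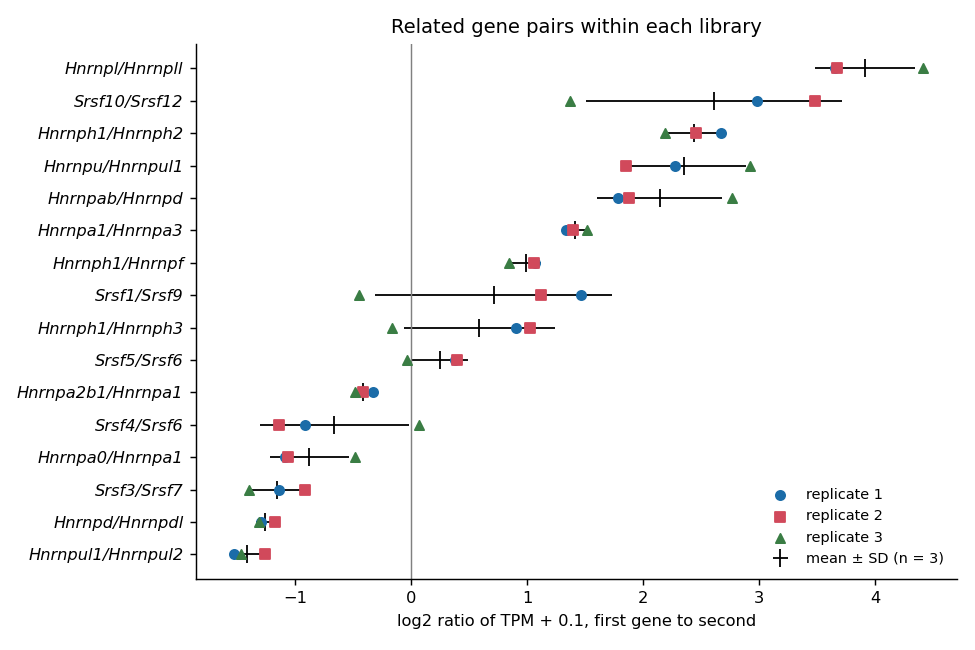
Log2 ratio of TPM + 0.1 between the first and the second gene of each of the 16 related pairs, with 1 symbol per library and a bar for the mean ± SD of the 3 libraries. Pairs left or right of 0 in all 3 libraries number 12, and in the other 4 replicate 3 lies across 0 from the other libraries.

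The levels of most members differed between the libraries by more than counting error. After TMM scaling (a trimmed mean of log ratios between libraries), a likelihood ratio test in edgeR against counting error alone called 25 of 31 members at an adjusted p of 0.05, 10 Srsf and 15 Hnrnp genes, against 63.1% of all 10662 genes tested. All 31 members passed the filter on low counts. Hnrnpa0, Hnrnpf, Hnrnph2, Hnrnpm, Hnrnpul2 and Srsf2 were not called. The test compares these libraries and not conditions. Without replicate 3 it called 6 members, namely Hnrnpab, Hnrnpd, Hnrnpul1, Srsf5, Srsf6 and Srsf11, against 28.5% of the genes tested then. With a dispersion estimated from the spread of the 3 libraries, edgeR called 0 members and 0.0375% of all genes tested, and 0 members had an unadjusted p under 0.05. That dispersion comes from the libraries under test.

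Called and lowest in replicate 3 were 17 of the 31 members, against 28.1% of all genes tested and 2933 of the 8821 protein-coding genes tested. With other scalings both the members' count and the share of all genes moved. The count was 10 (9.41% of all genes) when TMM factors came only from genes without a gene of the other strand within 5 kb, 16 (23.2%) with DESeq2 size factors and 26 (57.0%) with total counts. The median deviation of a family in replicate 3 from its mean over libraries was -0.24 for Srsf and -0.20 for Hnrnp on the log2 CPM scale with TMM, and 0.0069 and 0.055 with the factors from genes lacking a neighbour on the other strand, so its direction turned with the scaling. That scaling moved the median of all tested genes in replicate 3 from -0.03 to 0.22. The all-gene value with TMM mixes classes that differed. It was -0.24 for genes lacking a neighbour on the other strand and -0.13 for those with one within 5 kb. Where exons overlapped, it was 0.56. For the protein-coding genes tested it was -0.13. Members free of exon overlap had -0.26 (Srsf) and -0.28 (Hnrnp). Both family values were thus near that of genes lacking such a neighbour, a class that holds 6 of the 31 members. Another 14 members have a gene of the other strand within 5 kb and 11 have exon overlap. Both family values lay below the medians of those classes.

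Differences among members do not depend on scaling, since a library's factor is shared. The log2 ratio of raw counts in replicate 3 to replicate 2 had a median of -1.89 over the 31 members, beside -1.64 over all tested genes, and ran from -2.77 for Srsf3 to 0.08 for Srsf12. Srsf3 had 506, 780 and 114 counts, or 133, 145 and 61.7 CPM with TMM, lowest in replicate 3. Its libraries differed by more than counting error (adjusted p = 1.66e-19 in edgeR, for any difference). Next came Hnrnpll (-2.67), Srsf5 (-2.46) and Hnrnpd (-2.40). These 4 were among 13 of 31 members that were lowest in replicate 3 under each of 4 scalings, as were 27.3% of all genes tested. Srsf5 had 295, 353 and 187 CPM, with a range of 0.92 on the log2 scale (adjusted p = 6.14e-30 in edgeR).

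The 5 members highest in this ratio were above -1: Srsf12 (0.08), Srsf9 (-0.59), Hnrnpu (-0.80), Srsf4 (-0.83) and Hnrnph3 (-0.93). Hnrnpu had 965, 923 and 1547 CPM with TMM, highest in replicate 3. The p-values here are for any difference between the libraries beyond counting error, not for its direction (adjusted p = 5.30e-106 in edgeR for Hnrnpu). Srsf4 had 107, 109 and 179 CPM (adjusted p = 1.12e-12), Srsf9 17.0, 21.5 and 41.7 CPM (adjusted p = 1.29e-06) and Srsf12 3.93, 3.15 and 9.75 CPM (adjusted p = 0.00736), all from edgeR. Replicate 3 was the highest library for these genes, for Hnrnph3 and for Hnrnpab (188, 236 and 242 CPM) with TMM. Over the 4 scalings tried, this held throughout for 2 of 31 members, Srsf9 and Srsf12, and for 27.2% of all genes tested, and with total counts replicate 2 was highest for Hnrnpu, Srsf4, Hnrnph3 and Hnrnpab.

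**Figure D3:**
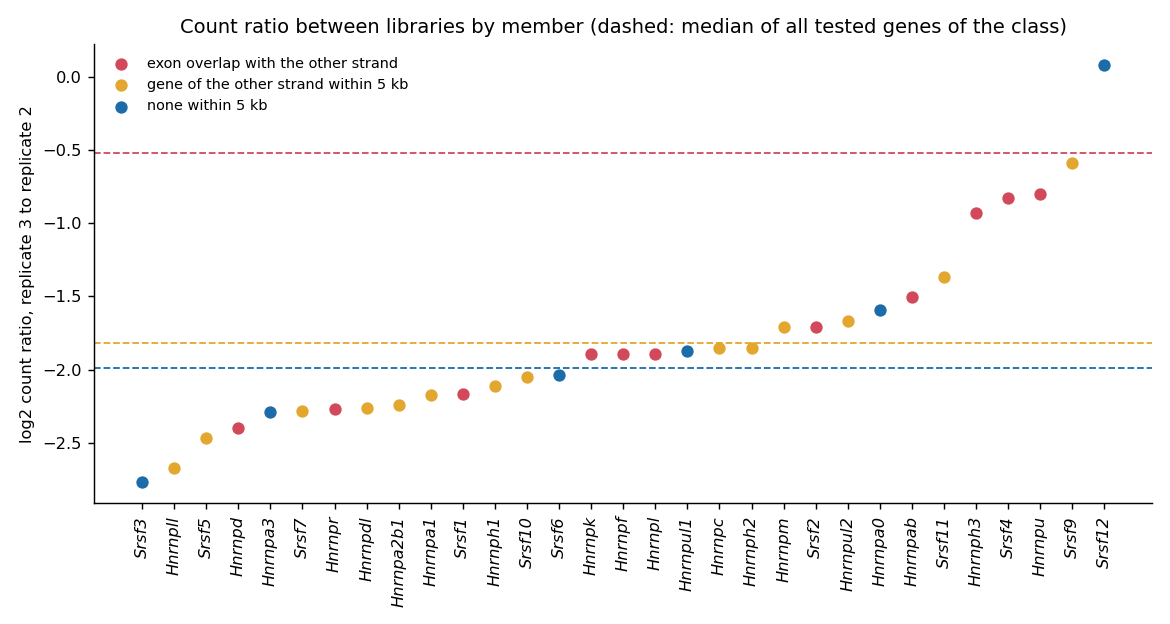
Log2 ratio of raw counts in replicate 3 to replicate 2 for each of the 31 members, coloured by what lies on the other strand. Dashed lines give the median over all tested genes of the same class, at -0.52 for exon overlap, -1.82 within 5 kb and -1.99 for none within 5 kb.

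The ratio varied with the annotation of the other strand over all genes. Genes with exon overlap (4418 tested) had a median of -0.52, beside -1.82 over the 3644 with a gene of the other strand within 5 kb and -1.99 over 2600 genes with none. Of the members, 11 had exon overlap (Srsf1, Srsf2, Srsf4, Hnrnpab, Hnrnpd, Hnrnpf, Hnrnph3, Hnrnpk, Hnrnpl, Hnrnpr and Hnrnpu), 14 lay within 5 kb of such a gene and 6 had none. The ratio had a median of -1.89 (-2.40 to -0.80) over the 11 members with overlap and -2.04 (-2.77 to 0.08) over the 20 without. Both groups overlapped over most of their range. The 11 included 3 of the 5 highest members, Hnrnpu, Srsf4 and Hnrnph3, while Srsf9 and Srsf12 have no such overlap.

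The 11 members had 13 partner genes on the other strand, and these differed from the members in both level and pattern. In 10 of 13 cases the partner held more counts per base than the member in all 3 libraries. The log2 ratio of replicate 3 to replicate 2 had a median of 0.07 over the partners (-2.23 to 1.43) and was above that of the member in 12 of 13 cases. Opposite Srsf2, the methyltransferase-like gene Mettl23 held 5513, 4786 and 5862 counts, against 712, 964 and 295 for Srsf2. Opposite Srsf4, the noncoding Gm12992 shares 1532 exonic bases with it and held 3063, 2949 and 3229 counts, against 408, 587 and 331. Raw counts of these partners were nearly level across libraries, whereas those of Srsf2 and Srsf4 were lowest in replicate 3.

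Opposite Hnrnpab, Phykpl held 7474, 6777 and 8673 counts against 718, 1271 and 447. Opposite Hnrnpu, Cox20, an assembly factor of cytochrome oxidase, lies with 91.1% of its exonic bases inside Hnrnpu exons and held 1465, 1242 and 1649 counts against 3681, 4980 and 2857. Cox20 thus had fewer counts but more per base, by 5.23, 3.28 and 7.58-fold. Opposite Hnrnpd, the antisense Gm17092 held 919, 1126 and 930 counts against 551, 915 and 173. The exceptions were Rmi1 opposite Hnrnpk (27, 44 and 9 counts against 1017, 1552 and 417) and Gm44702 opposite Hnrnpl (16, 13 and 36 against 846, 1314 and 354), which share few exonic bases with the member (53 and 32), and Rufy2 opposite Hnrnph3, which had more counts but not more per base in replicate 2.

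**Figure D4:**
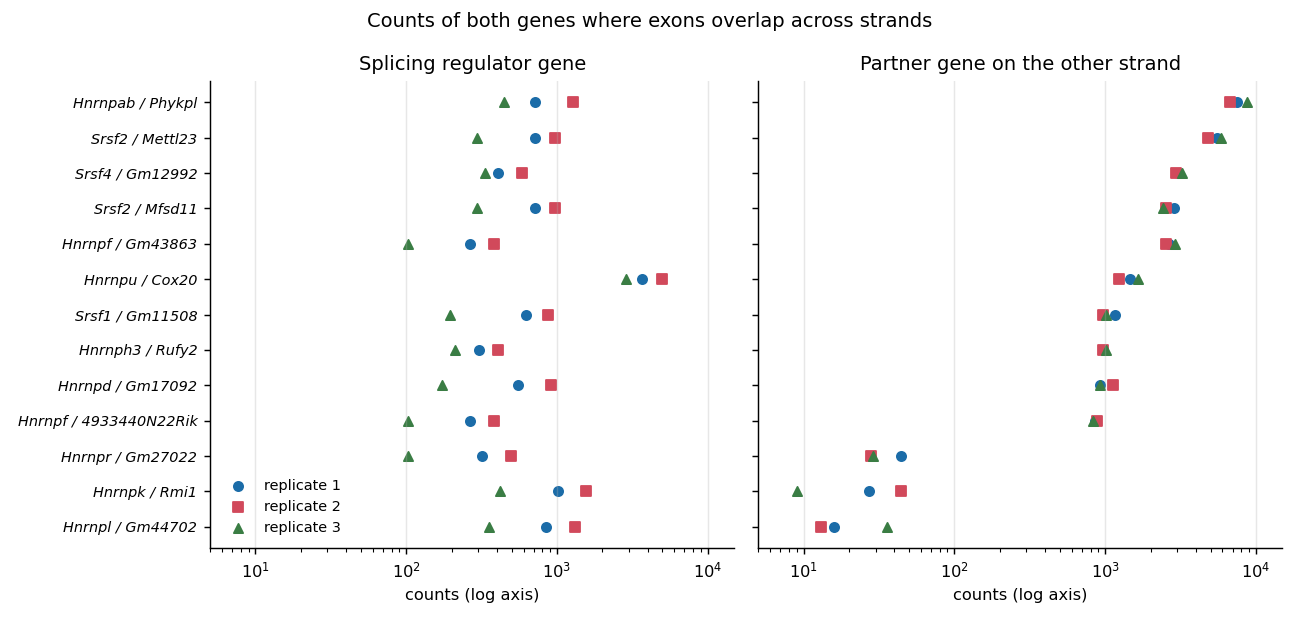
Counts (log axis) of the splicing regulator gene (left) and of its partner on the other strand (right) for the 13 cases of exon overlap, with 1 symbol per library. Replicate 3 is the lowest library for the member in all rows, whereas the partners above 100 counts lie within a narrow range.

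The families differ in the proteins they encode, in ways their classification rests on. Translated coding sequences of GENCODE M21 gave a median of 16.0 arginine-serine or serine-arginine dipeptides per 100 residues for Srsf (4.05 to 23.5) and 0.994 for Hnrnp (0.274 to 2.55), with no overlap. Glycine made up a median of 7.41% of Srsf and 13.7% of Hnrnp residues, and RGG tripeptides were present in 4 of 11 and 14 of 20 proteins. Srsf4 had the most such dipeptides (106 in 491 residues) and Srsf9 the fewest of its family (9 in 222). Among Hnrnp proteins glycine reached 27.5%. Of the 6 Srsf genes with the highest mean TPM, Srsf11 had 8.02 dipeptides per 100 residues and the other 5 had 18.1 to 23.5, and the 5 lower genes had 4.05 to 16.0. An association with level was not tested. With the longest transcript as length, Srsf11 had the highest mean of the family (188 TPM).

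**Figure D5:**
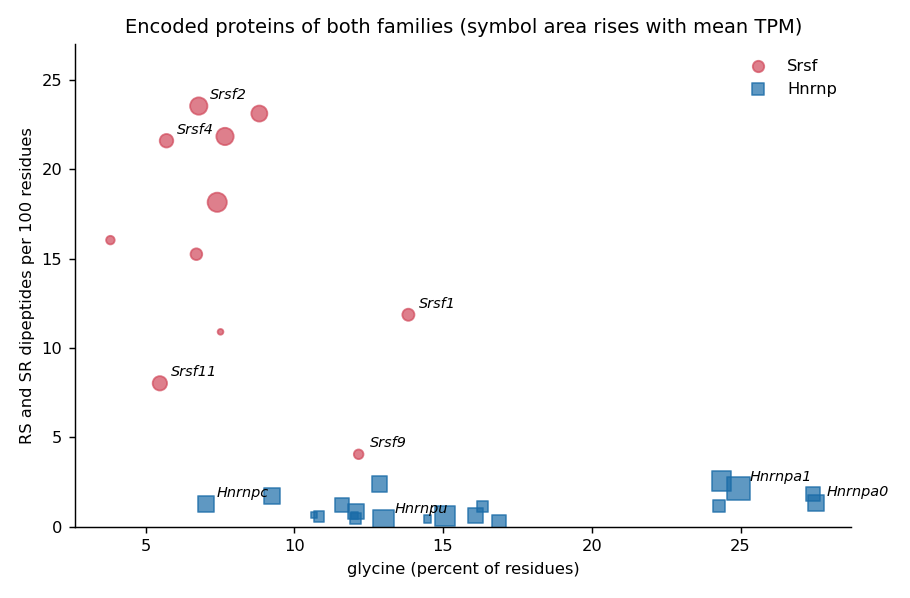
Arginine-serine and serine-arginine dipeptides per 100 residues against percent glycine for the encoded proteins of 11 Srsf (circles) and 20 Hnrnp genes (squares), with symbol area rising with mean TPM. The lowest Srsf protein, Srsf9, lies at 4.05 per 100 and the highest Hnrnp protein at 2.55.

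Counts are per gene, so productive and unproductive isoforms add up in one value. SR protein genes are known for conserved exons whose inclusion targets the transcript to nonsense-mediated decay. GENCODE M21 lists a transcript of that biotype for 9 of 11 Srsf and 10 of 20 Hnrnp genes, against 20.9% of protein-coding genes, and one with a retained intron for 22 of 31 members, against 41.8%. The members had a median of 7 annotated transcripts, against 4 over protein-coding genes.

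Near-identical copies can also bear on some levels, since the counting command has no option to keep multi-mapping fragments. Of all 75-base windows of the longest transcript, 39.1% for Hnrnpf, 27.9% for Hnrnpa3, 26.9% for Hnrnpk and 26.9% for Hnrnpa1 also occur in transcripts of other genes, among them 33 pseudogenes for Hnrnpa3 and 10 for Hnrnpa1. Hnrnph2 (12.98%) and Srsf3 (13.5%) followed. These shares describe windows of annotated transcripts and not counted fragments, and their effect on the counts of these 6 genes was not tested.

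Other genes of splicing were counted in the same libraries from 5 lists. Of the SR protein kinases 7 of 8 tested genes were called as varying between libraries, 4 of them lowest in replicate 3. The highest were Prpf4b (102 ± 35.2 TPM), Srpk2 (59.8 ± 13.9) and Clk1 (55.0 ± 30.6). Of SR-related proteins and partners 20 of 28 were called, 14 lowest in replicate 3, led by Srrm2 (200 ± 100.8 TPM), a scaffold of nuclear speckles, then Snrnp70 (153 ± 50.2), a U1 protein, and Acin1 (138 ± 40.01). Of hnRNP-class proteins under other symbols and other repressors 16 of 25 were called, 14 lowest in replicate 3, led by Pcbp1 (140 ± 46.1 TPM), Pcbp2 (131 ± 42.4) and Sfpq (123 ± 36.9), and Ralyl had 0 counts in each library.

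Of other splicing regulators of T cells 11 of 12 were called, 7 lowest in replicate 3, led by Psip1 (135 ± 24.0 TPM), Rbm39 (122 ± 45.3) and Rbm10 (72.2 ± 11.3), while Rbfox2 had 1, 3 and 0 counts. Of the core spliceosome 17 of 34 were called, 15 lowest in replicate 3, led by Sf3b2 (139 ± 56.6 TPM), Sf3a2 (106 ± 3.17) and Sf3b1 (104 ± 61.4). These shares are to be read against 63.1% of all tested genes called and 28.1% called with replicate 3 lowest. Of the 8821 protein-coding genes tested, 5130 were called and 2933 were called with replicate 3 lowest. Median levels in these lists ran from 26.4 to 36.9 TPM in replicate 1, below the medians of 60.9 and 89.4 TPM for Srsf and Hnrnp genes there. Of the highest genes named from the lists, Srpk2, Srrm2, Acin1, Pcbp1, Pcbp2, Psip1, Rbm10 and Sf3a2 have exons that overlap the other strand.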

How the data were processed

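Each deposited table holds raw fragment counts by gene. The authors ran featureCounts 1.4.6-p4 on read pairs with both ends mapped, with strand setting 1 and GENCODE M13 exons, per the file headers. The labels give mm10 as assembly. Of kit orientation and trimming nothing is given in the sources used here. Members and gene lists were chosen with earlier results of these data known. Names and biotypes came from GENCODE M21 (50376 of 50600 identifiers, 224 unnamed), and strand classes from bedtools 2.31.1. TPM used the deposited summed exon length. The longest transcript, used as another length, came from GENCODE M21, and for Hnrnpa1 and Srsf7 it is longer than the deposited summed exons. Variation was tested with edgeR 4.0.16 (likelihood ratio, dispersion 0, TMM, filterByExpr, 10662 genes, Benjamini-Hochberg at 0.05), with size factors from DESeq2 1.42.0 as another scaling, and the step was tested on simulated data. Exact sign-flip tests enumerated all sign combinations in python 3.11.15. PCR duplicates were not told apart, so the test covers counting error only. RefSeq proteins and a genome were not used here; coding sequences and transcripts of GENCODE M21 took their place. Named genes were the 6 highest of each family, members under 10 counts in a library (none), members of pairs and, of each list, the 3 highest by mean TPM and those under 10 counts in all libraries; members named for their ratio between libraries were chosen after their values were seen.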

Additional observations from a re-analysis of the deposited data

How the results depend on the processing

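The Hnrnp minus Srsf median difference kept its sign in all alternatives run (0.29 to 0.51; 0.31 to 0.56 leaving out 1 library), and none could pass 0.05. Of the members varying between libraries, 6 to 24 were called leaving out 1 library (28.5% to 61.4% of all genes), with 6 when replicate 3 was left out. With the dispersion common to all tested genes (0.14) edgeR called 0 members and 4 of all genes, and 0 members had an unadjusted p under 0.05, whereas DESeq2 size factors without dispersion gave 24 (58.9% of all genes). Among genes without exon overlap alone, an alternative chosen after seeing the data, 15 of 20 members were called (39.0% of the genes tested). The shift of replicate 3 was 0.0069 (Srsf) and 0.055 (Hnrnp) with TMM factors from genes with none on the other strand within 5 kb, and -0.68 and -0.63 with total counts, also chosen after seeing the data. The cause of these changes was not tested. The first gene of a pair was higher in 7 to 10 pairs leaving out 1 library. Without length correction the log2 ratio became -0.077 for Hnrnpa1/Hnrnpa3, 1.36 for Hnrnpa2b1/Hnrnpa1, -0.024 for Srsf5/Srsf6 and 0.0072 for Srsf3/Srsf7, and with the longest transcript as length 1.14 for Hnrnpa2b1/Hnrnpa1 and -0.0049 for Srsf5/Srsf6. That length moved 9 of 31 mean levels by over 1 SD. Depth limits Srsf12 most, at 15 to 18 counts a library. No paired analysis was possible because there is 1 group.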
